A study of Mus musculus with 11 samples.

Results

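The spread of expression among 5 mouse B-cell leukemias was set against the spread among 3 pools of normal progenitor B cells, gene by gene. The genes were those with a mean of at least 5 FPKM (fragments per kilobase of transcript, scaled to sequencing depth) over the leukemias, which left 8267 of the 23071 identifiers in the table. For each gene the spread was the standard deviation (SD) of log2(FPKM + 1) over the libraries of a group; on this scale a difference of 1 is a doubling of FPKM + 1. Of these genes, 7697 also had a mean of at least 5 FPKM in wild type, 570 had a lower wild-type mean and 81 had a wild-type mean under 1 FPKM. The 100 genes just inside the limit had median SDs of 0.19 in leukemia and 0.17 in wild type, and the 100 just outside it 0.28 and 0.20.

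The 5 leukemias came from C57BL/6 mice carrying heterozygous mutations of both transcription factor genes Pax5 and Ebf1 (Pax5+/- x Ebf1+/-), 1 mouse per library, as lymph node cell suspensions that were flash frozen. The 3 wild-type libraries came from C57BL/6 bone marrow progenitor B cells purified on columns, in pools of 3, 7 and 6 mice for replicates 1, 2 and 3. A further 3 pools of Ebf1+/- C57BL/6 progenitor B cells from bone marrow (3, 6 and 7 mice) were used only as a second set of pools, and the submitters' processing notes list another aligner for them (TopHat2 in place of BWA). A leukemia library holds 1 animal and a pool averages several, so tumour against normal, single animal against pool, lymph node against marrow, and unsorted against purified cells cannot be told apart in any difference between the groups.

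Library totals, in units of 1e6 reads, were 8.51 to 14.33 in the leukemias and 11.09 to 14.49 in wild type. The median gene had 717 reads per leukemia library and 709 per wild-type library, and counting error alone gives a median SD of 0.053 in the leukemias and 0.051 in wild type. The observed spread was no larger than counting error for 2.76% of genes in the leukemias and for 10.1% in wild type. Cd79a, a signalling chain of the B-cell receptor that marks B-lineage cells, was high in all 8 libraries (553 to 1092 FPKM). Granulocyte markers summed to 4.09 to 9.81 FPKM in the leukemias and to 3468, 1841 and 648 FPKM in wild-type replicates 1, 2 and 3. Erythroid markers summed to 57.3 to 149 FPKM in the leukemias and, in the same order of pools, to 249.9, 688 and 1305 FPKM. In bulk RNA, fewer cells of a type and less RNA per cell cannot be told apart.

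Pax5 and Ebf1 are transcription factors that commit lymphoid progenitors to the B lineage, and Ebf1 and Pax5 act on many of the same targets. Progenitor B cells pass through ordered stages in which immunoglobulin genes are rearranged, the pre-B receptor is displayed with the surrogate light chain, and signalling through the interleukin-7 receptor and STAT5 sustains growth. Housekeeping machines such as the proteasome and the ribosome need their subunits in fixed proportion in any cell.

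For the gene in the middle of the distribution, the spread among leukemias was close to that among normal pools. The median SD over genes was 0.17 in the leukemias, 0.16 in wild type and 0.28 in the Ebf1+/- pools. The SD was larger in the leukemias than in wild type for 55.8% of genes, and larger in the leukemias than in the Ebf1+/- pools for 30.8%. An SD from 3 libraries is biased low compared with one from 5, and after correction for that bias the medians were 0.184 and 0.186. The typical deviation of a library from its group mean was 0.13, 0.15, 0.12, 0.14 and 0.12 in leukemia replicates 1 to 5, and 0.17, 0.097 and 0.14 in wild-type replicates 1 to 3. The highest and the lowest of these 8 values were both wild-type pools, the pool of 3 mice and the pool of 7 mice. Group means were 0.13 ± 0.013 (SD, n = 5) and 0.14 ± 0.037 (SD, n = 3), and the difference of -0.0043 gave p = 0.804 (exact two-sided permutation test; the smallest p possible is 0.0179). Deviations from a mean of 3 libraries are smaller by construction than those from a mean of 5, so each deviation was scaled up for the number of libraries in its group. The order of the groups turned on single pools: without wild-type replicate 1 the leukemias deviated more by 0.0315, and without wild-type replicate 2 they deviated less (-0.039). These values carry no test, since the pair of pools left over lies at the same distance from its own mean.

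The tail of the distribution was longer in the leukemias than in wild type. In the leukemias 153 genes (1.85%) had an SD over 1, against 16 genes (0.194%) in wild type and 151 genes (1.83%) in the Ebf1+/- pools. When each library was left out in turn, 133 to 172 genes were over 1 in the leukemias, and 9, 71 and 13 in wild type without replicates 1, 2 and 3. The 99th percentile of the SD was 1.35 in the leukemias, 0.74 in wild type and 1.22 in the Ebf1+/- pools. Among the 7697 genes at 5 FPKM or more in both groups, 84 had an SD over 1 in the leukemias and 13 in wild type. In the Ebf1+/- pools 137 of these genes did, more than in the leukemias. Their 99th percentiles were 1.03 in the leukemias, 0.72 in wild type and 1.22 in the Ebf1+/- pools. At the other end, 1290 genes (15.6%) had an SD under 0.1 in the leukemias and 2189 genes (26.5%) in wild type, which has fewer libraries. Spread declined only slightly with expression level: the 20% of genes with the lowest mean (5.00 to 9.32 FPKM) had a median leukemia SD of 0.20 and 3.63% of genes over 1, and the 20% with the highest mean had 0.17 and 1.03%. The 10% of genes with the highest SD in the leukemias, 826 genes, shared 218 (26.4% of each list) with the 826 most variable in wild type.

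Some genes were on in a leukemia and off in another. Counted over the whole table, 264 of the 8982 genes that reached 5 FPKM in at least 1 leukemia were under 1 FPKM in another (2.94%), against 36 of 8826 (0.408%) in wild type and 142 of 9257 (1.53%) in the Ebf1+/- pools. Because 5 libraries form more pairs than 3, the count was also made for each pair: 40 to 115 genes were on in one leukemia and off in the other over 10 pairs, and 3, 3 and 33 over the 3 wild-type pairs. Over the 3 Ebf1+/- pairs it was 32 to 126, a range that overlaps the leukemias. The leukemia tail held genes in which a lone library stood apart and genes that split the libraries more evenly. Among the 82 genes of highest leukemia SD (1% of the set), the widest gap between ordered values set apart a single library in 42.7% (19 genes with that library high and 16 with it low), and split the 5 libraries 2 against 3 in the rest (25 genes with 2 high and 22 with 3 high). Over all 8267 genes the widest gap set apart a single library in 61.2%. At the same gap a split of 2 against 3 gives a larger SD than a lone library. Choosing genes by SD thus favours such splits, and the shares cannot be compared directly. Among the 82 genes, leukemia replicate 5 was the lone low library in 9 and the lone high library in 8.

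The 12 most variable named genes had leukemia SDs from 2.27 to 2.96. The plot of the most and least variable genes shows their values in every library. Xist, the RNA that silences an X chromosome in female cells, stood at 0.0328, 49.5, 54.4, 25.5 and 0.0234 FPKM in leukemia replicates 1 to 5 and at 18.8, 8.79 and 27.7 FPKM in the wild-type pools. The Y-linked genes Eif2s3y (translation initiation) and Ddx3y (an RNA helicase) showed the reverse: Eif2s3y stood at 21.9 and 38.9 FPKM in leukemia replicates 1 and 5 and was listed at 0 in replicates 2, 3 and 4. In wild-type replicates 1, 2 and 3 Eif2s3y stood at 8.14, 18 and 0 FPKM, so its wild-type SD was also high, at 2.21. Neither Xist nor the Y-linked genes passed the test of spread (adjusted p = 0.0964 for Xist, limma moderated variances). Expression of these 3 genes follows the sex of the animal, which the labels do not give.

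**Figure D1:**
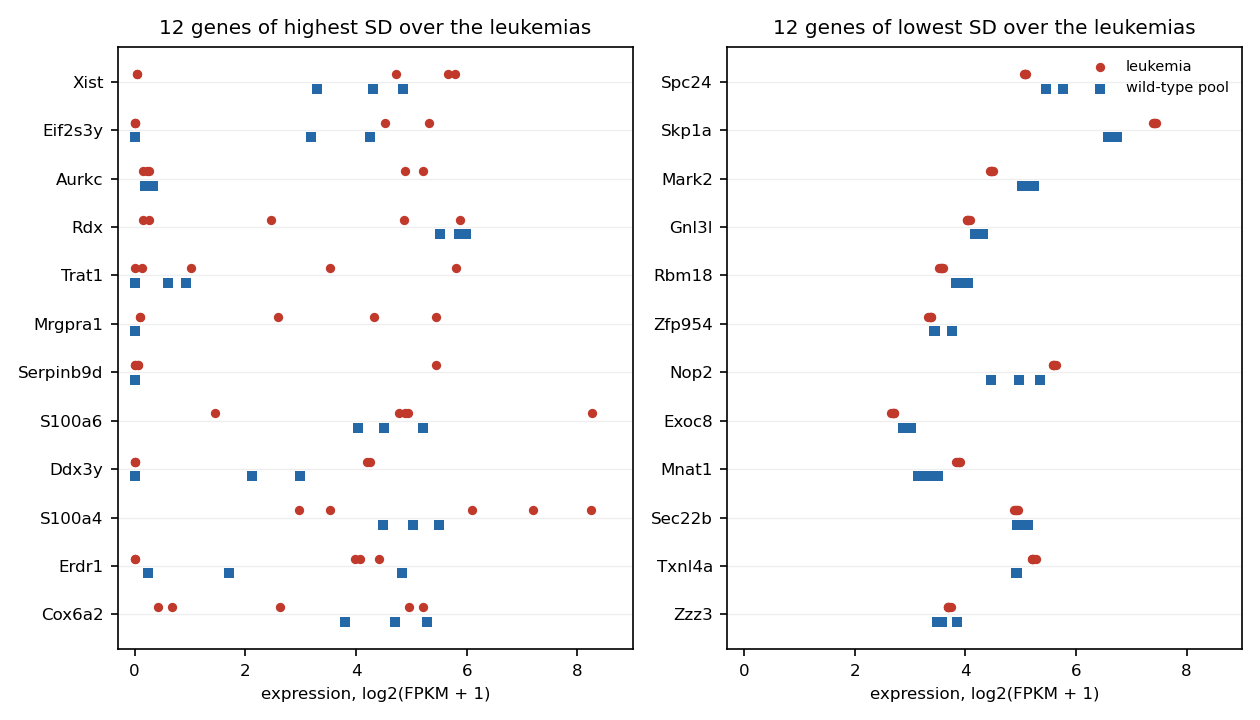
Expression as log2(FPKM + 1) of the 12 named genes with the highest and the 12 with the lowest SD over the leukemias (circles, 5 leukemias; squares, 3 wild-type pools; each point is a library). On the left the leukemias range from near 0 to above 4 for each gene but S100a6 and S100a4, which start higher; on the right the 5 circles of each gene overlap, with SDs of 0.013 to 0.029.

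Further genes at the top were on in some leukemias and off in others. Aurkc, a kinase of meiotic division, stood at 36 and 28.5 FPKM in leukemia replicates 3 and 4 and at 0.106 to 0.194 FPKM in the other 3, beside 0.144 to 0.251 FPKM in the wild-type pools. Rdx (radixin), which ties the membrane to the actin skeleton, stood at 4.54, 0.189, 28.3, 0.112 and 57.7 FPKM in the leukemias and at 44.9, 57 and 62.3 FPKM in wild type. Aurkc was thus off in every normal pool and on in 2 leukemias, and Rdx was on in every normal pool and nearly off in 2 leukemias. Rdx passed the test of spread (adjusted p = 0.0251, limma moderated variances). Aurkc entered the set only through the leukemias where it was high, so its values are given without a test. The calcium-binding proteins S100a6 and S100a4 ranged from 1.72 to 306 FPKM and from 6.82 to 304 FPKM over the leukemias, with leukemia replicate 2 highest and replicate 4 lowest for both. Their adjusted p values were 0.0904 and 0.0733.

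The 12 least variable named genes had leukemia SDs from 0.013 to 0.029. Spc24, a kinetochore subunit, stood at 32.9, 32.9, 32.6, 33.4 and 32.6 FPKM in the leukemias and at 53.3, 53.4 and 43 FPKM in wild type. Skp1a, a core subunit of SCF ubiquitin ligases, stood at 168 to 173 FPKM in the leukemias and 94.5 to 106 FPKM in wild type. The other 10 were Mark2 (a microtubule-regulating kinase), Gnl3l (a nucleolar GTPase), Rbm18 (an RNA-binding protein), Zfp954 (a zinc finger protein), Nop2 (a methyltransferase of ribosomal RNA), Exoc8 (exocyst), Mnat1 (assembly of the CDK-activating kinase), Sec22b (vesicle fusion between the endoplasmic reticulum and the Golgi), Txnl4a (spliceosome) and Zzz3 (a subunit of a histone acetyltransferase complex). These SDs lie under 0.053, the median counting error over all genes in the leukemias. Each gene's own counting error is not given here for these 12, so whether depth can separate them from no spread was not tested. None of the 12 passed the test; Nop2 had the widest wild-type spread of them, at 21, 30.2 and 39.5 FPKM (wild-type SD 0.44).

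Promoters are shown for the pair of genes at each end of the ranking, because the ends differed in CG content (protein-coding genes outside the sex chromosomes with an entry in the RefSeq table, GRCm38.p6, from 250 bases before to 50 after the annotated start, 5′ to 3′ on the gene's strand; CG dinucleotides are in capitals). Among the named genes, Aurkc (chr7:6995135-6995434, plus strand) and Rdx (chr9:52046900-52047199, plus strand) had the highest SD under these conditions. Skp1a (chr11:52231745-52232044, plus strand) and Mark2 (chr19:7341811-7342110, minus strand) had the lowest after Spc24 (SD 0.013), whose promoter is not shown.
Aurkc: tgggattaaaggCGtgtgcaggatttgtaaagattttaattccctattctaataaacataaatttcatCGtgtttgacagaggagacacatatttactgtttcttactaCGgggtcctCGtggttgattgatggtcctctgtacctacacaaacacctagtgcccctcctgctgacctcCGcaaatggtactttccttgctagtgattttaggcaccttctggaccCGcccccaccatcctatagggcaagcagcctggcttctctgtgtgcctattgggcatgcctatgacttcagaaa
Rdx: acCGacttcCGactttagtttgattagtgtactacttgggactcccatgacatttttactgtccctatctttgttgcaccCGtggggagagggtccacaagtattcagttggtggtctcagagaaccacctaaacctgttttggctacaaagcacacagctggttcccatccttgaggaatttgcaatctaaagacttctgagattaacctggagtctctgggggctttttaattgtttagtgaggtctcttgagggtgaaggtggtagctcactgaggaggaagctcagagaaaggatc
Skp1a: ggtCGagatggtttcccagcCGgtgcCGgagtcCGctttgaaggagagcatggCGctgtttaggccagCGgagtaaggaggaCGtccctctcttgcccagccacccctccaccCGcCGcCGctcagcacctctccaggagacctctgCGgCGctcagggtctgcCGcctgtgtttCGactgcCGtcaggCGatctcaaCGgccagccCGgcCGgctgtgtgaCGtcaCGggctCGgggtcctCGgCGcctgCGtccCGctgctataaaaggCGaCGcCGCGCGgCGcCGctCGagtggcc
Mark2: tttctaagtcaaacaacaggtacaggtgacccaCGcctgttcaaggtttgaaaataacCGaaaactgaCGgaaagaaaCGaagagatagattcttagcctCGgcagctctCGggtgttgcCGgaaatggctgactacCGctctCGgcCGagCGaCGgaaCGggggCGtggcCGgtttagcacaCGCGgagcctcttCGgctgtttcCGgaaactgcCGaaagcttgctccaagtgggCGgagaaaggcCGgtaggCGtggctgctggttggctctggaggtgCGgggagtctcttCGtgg
The windows of Aurkc and Rdx held 6 and 3 CG dinucleotides, and those of Skp1a and Mark2 held 34 and 25. Those of the next gene at each end, Trat1 (high SD) and Rbm18 (low SD), held 1 and 16. The median over protein-coding genes of the set was 22, so Rbm18 lay below it. A gene can start at other sites than the annotated window, and which start these cells used was not measured.

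The same contrast in CG content held over the upper and lower 10% of the ranking. Among protein-coding genes, the most variable 10% had a median of 17 CG dinucleotides per window (647 of 807 genes with a promoter in the table) and the least variable 10% had 22.5 (666 of 806 genes). Windows with under 10 CG dinucleotides made up 33.5% of the most variable 10%, 7.66% of the least variable 10% and 12.3% of all protein-coding genes in the set, beside 56.1% of all 27025 promoters in the table. The letters TATAAA, searched on both strands, were present in 7.57%, 6.31% and 5.89% of the 3 groups and in 14.2% of all promoters in the table. The most variable 10% was also expressed at a lower median level (15 against 23 FPKM), and the part of that in the CG difference was not tested. Over all genes of the set, only 79.2% of the most variable 10% had a promoter, so the comparison is given for protein-coding genes alone, a choice made after the coverage was seen.

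Genes that passed the test of spread numbered 41 with the larger spread in leukemia (0.496% of 8267 genes) and 3 with the larger spread in wild type (0.0363%), by the ratio of a gene's variance to the limma-moderated variance of the other group at a Benjamini-Hochberg adjusted p under 0.05. Before adjustment, 503 and 406 genes had a p under 0.05. Of the 41, 28 had a wild-type mean under 5 FPKM, 19 of them under 1 FPKM, so these genes entered the set only through the leukemias, and a small wild-type spread came with that choice; their values are given as a description. Restricted to genes at 5 FPKM or more in both groups, limma called 5 genes in leukemia (0.065% of 7697; Rdx, Sh2b3, BC064078, Gm13157 and 2810025M15Rik) and 0 in wild type (0.0%; 398 had p under 0.05 before adjustment). With limma on absolute deviations in place of the variance ratio, 2 genes were called in leukemia, with or without a replicate block, and 1 of the 41 (Aurkc) was among them. In simulated data the test recovered 0% of genes whose SD differed 3-fold, 12% (leukemia larger) and 22% (wild type larger) at 5-fold, and 62% and 71% at 8-fold, so these counts cover only very large differences.

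**Figure D2:**
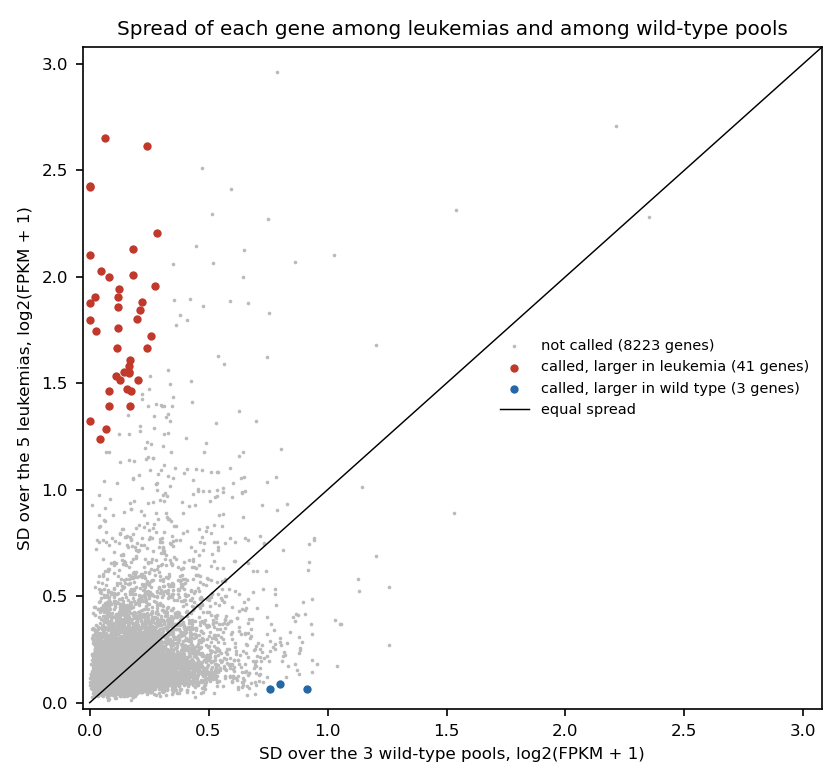
SD over the 5 leukemias (vertical axis) against SD over the 3 wild-type pools (horizontal axis), both of log2(FPKM + 1), for each of 8267 genes; the line marks equal spread. The 41 genes called with larger spread in leukemia lie along the left edge with leukemia SDs of 1.24 to 2.65, and the 3 called in wild type lie at the foot.

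Some genes called with larger spread in leukemia were at or near 0 in the normal pools. Mrgpra1, a receptor of the Mas-related family, stood at 42.6, 5.05, 0.0741, 0.0711 and 19 FPKM and was listed at 0 in the 3 wild-type pools. Serpinb9d, a protease inhibitor, stood at 42.4 FPKM in leukemia replicate 1, at 0.0368 to 0.0384 FPKM or 0 in the other 4, and was listed at 0 in wild type. Prdm14, a transcription factor of germ cells, stood at 16 and 11 FPKM in leukemia replicates 1 and 3, at 0.0294 FPKM or 0 in the other 3, and was listed at 0 in wild type. Each of these genes was under 0.1 FPKM in at least 2 leukemias. For Serpinb9d and Prdm14 the lowest leukemias were listed at 0 like the pools. For Mrgpra1 every leukemia lay above the pools, but replicates 3 and 4 only at 0.0741 and 0.0711 FPKM, close to 0.

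Among called genes that were on in the normal pools, some were far lower in 1 or 2 leukemias and others far higher. BC064078 stood at 24.2, 25.2, 28.2, 26.6 and 0.166 FPKM in the leukemias, against 16.8 to 17.9 FPKM in wild type (adjusted p = 0.0251, limma moderated variances). That call rested on leukemia replicate 5: without it the difference in spread of BC064078 fell from 1.98 to 0.0467 and the adjusted p was 1 (limma). Sh2b3, an adaptor that restrains cytokine receptor and JAK signalling, stood at 3.72, 31, 17, 21.3 and 0.454 FPKM against 36.6 to 42.4 FPKM in wild type (adjusted p = 0.0251, limma moderated variances). Every leukemia lay below every wild-type pool for Sh2b3, and replicates 1 and 5 lay furthest below. Ddit4, an inhibitor of the growth kinase complex mTORC1, stood at 89.9 and 95.5 FPKM in leukemia replicates 2 and 4 and at 7.37 to 19.4 FPKM in the other 3, against 19.3 to 28 FPKM in wild type (adjusted p = 0.0478, limma moderated variances). Without leukemia replicate 5 the adjusted p of Sh2b3 was 0.079, and over its alternatives it ran from 0.00939 to 0.408 (limma). Ddit4 stayed called in 7 of 19 alternative settings.

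The 3 genes called with larger spread in wild type were the enzymes Srm, Cad and Minpp1. Srm, which makes spermidine, stood at 102, 92.5, 91.7, 95 and 98.3 FPKM in the leukemias and at 23.3, 51.2 and 84.5 FPKM in wild type (adjusted p = 0.0335, limma moderated variances). Cad, which carries out the first steps of pyrimidine synthesis, stood at 40.1 to 47.2 FPKM in the leukemias and at 16.4, 33.7 and 50.9 FPKM in wild type (adjusted p = 0.0478, limma moderated variances). For Srm and Cad the leukemias were nearly level, and wild-type replicate 1 was the lowest pool and replicate 3 the highest. Minpp1, an inositol polyphosphate phosphatase, stood in the pools at 30.8, 52.7 and 90 FPKM, above leukemia values of 19.8 to 22 FPKM (adjusted p = 0.0452, limma moderated variances). Of the 5 with smallest p in this direction, Zfp36 (which marks AU-rich messages for decay) and Atic (purine synthesis) missed the threshold, at 0.0523 and 0.0535.

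The number of calls depended on single libraries. With larger spread in leukemia it was 12 without leukemia replicate 5, 22 without leukemia replicate 4 and 98 without wild-type replicate 1. With larger spread in wild type limma called 0 without leukemia replicate 3, 4 or 5 or without wild-type replicate 1 (334, 390, 336 and 81 had p under 0.05 before adjustment), 1 without leukemia replicate 1 or wild-type replicate 3, and 27 without wild-type replicate 2.

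Functions were compared by the median SD of the genes of a list, beside 0.17 for all genes in the leukemias and 0.16 in wild type. The plot of spread by function orders the lists. Among lists with at least 5 genes in the set, the variable end held MHC class II presentation (0.71), surface markers of early B-cell stages (0.57), STAT5 outputs (0.48), replication-dependent histones (0.47), the TNF superfamily (0.46) and the p53 response (0.38). MHC class I presentation was nearer to all genes, at 0.23 in leukemia and 0.21 in wild type, with 0 of 18 genes in the most variable 10%. At the constant end stood chaperonins and heat shock proteins, tRNA charging, splicing, mitochondrial ribosomes, the proteasome and RNA polymerase II. No list held more than 1 called gene, so the order is a description. Without wild-type replicate 1 the wild-type median over all genes was 0.10, with 73.6% of genes more spread in leukemia; the leukemia order of the lists does not use that pool.

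**Figure D3:**
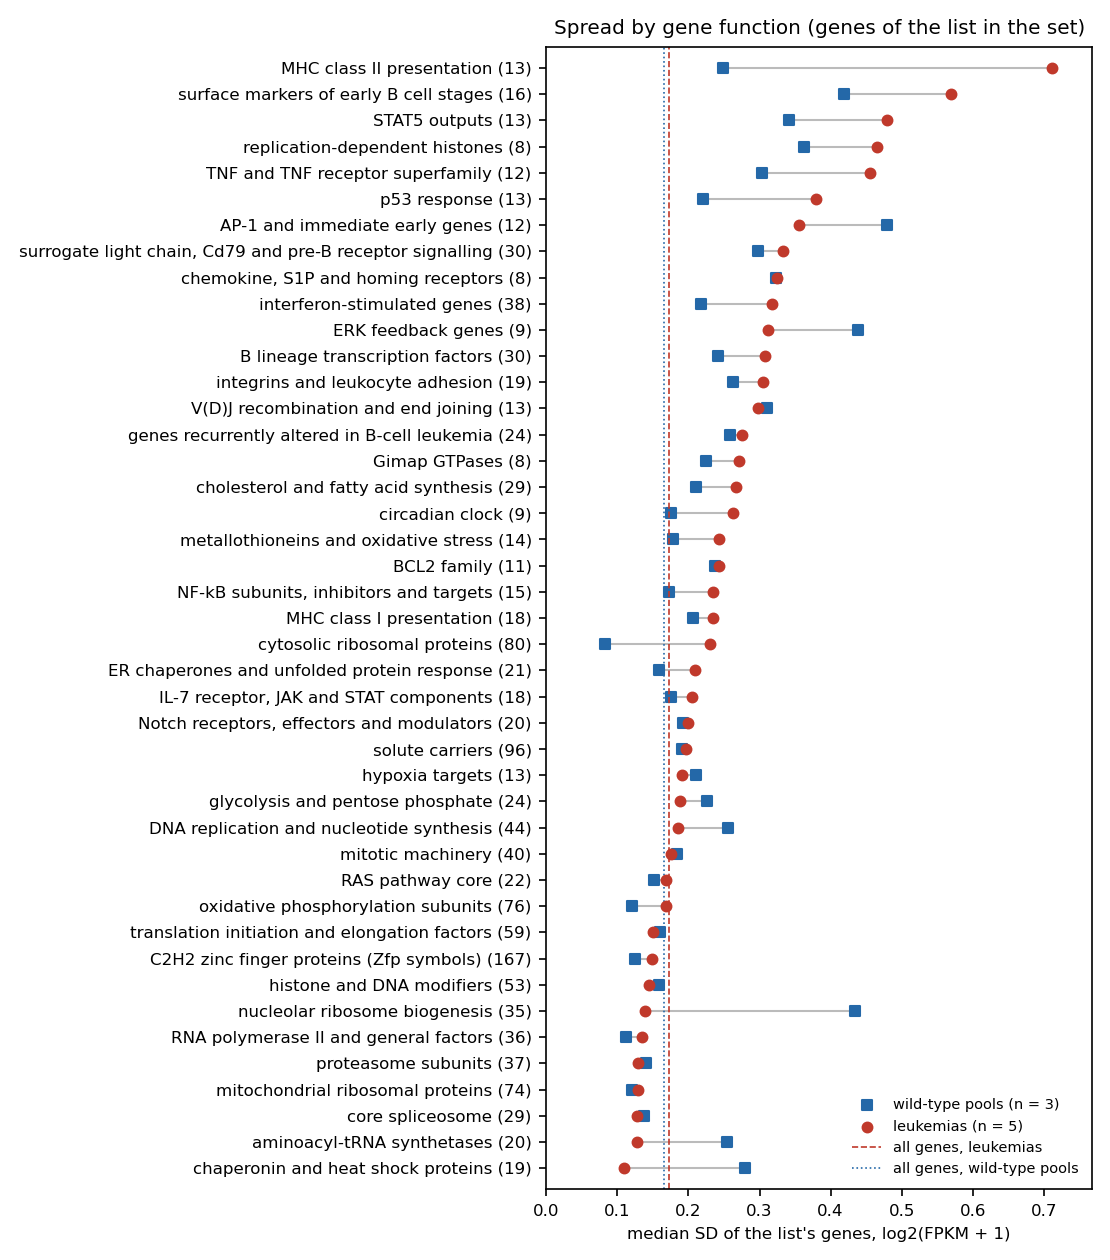
Median SD of log2(FPKM + 1) of each function list with at least 5 genes in the set over the 5 leukemias (circles) and the 3 wild-type pools (squares), ordered by the leukemia value, with the number of the list's genes in the set; dashed and dotted lines mark all genes. The range of these lists in the leukemias runs from 0.11 for chaperonins and heat shock proteins to 0.71 for MHC class II presentation, and wild type stands far to the right of leukemia for nucleolar ribosome biogenesis (0.43 against 0.14).

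MHC class II presentation had the highest median SD of the function lists with at least 5 genes in the set, at 0.71 in the leukemias, 0.25 in wild type and 0.71 in the Ebf1+/- pools. Of its 13 genes, 8 were in the most variable 10% of leukemia, 3 in that of wild type and 9 in that of the Ebf1+/- pools, and 0 were called. H2-Aa, the alpha chain of I-A, stood at 93.1, 16.4, 32.9, 7.81 and 28.4 FPKM in the leukemias and at 90.3, 87.1 and 72.8 FPKM in wild type (adjusted p = 0.0544, limma moderated variances). Cd74, the invariant chain that guides class II molecules, stood at 355, 48.2, 90.3, 41.9 and 108 FPKM against 202, 186 and 143 FPKM. Leukemia replicate 1 was highest and replicate 4 lowest for both genes, and only replicate 1 reached the wild-type values. Rfxank, a subunit of the factor that binds class II promoters, was level, at 11.3 to 12.8 FPKM over the leukemias and 12.1 to 16.9 FPKM in wild type. The list's SD stayed between 0.57 and 0.80 when each leukemia was left out in turn. Markers of dendritic cells, which also carry class II molecules, summed to 225.8 FPKM in leukemia replicate 1 and to 98.3 to 157 FPKM in the other 4, and their part in the class II spread was not tested.

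Surface proteins that mark early B-cell stages had a median SD of 0.57 in the leukemias, 0.42 in wild type and 0.59 in the Ebf1+/- pools. Of its 16 genes, 10 were in the most variable 10% of leukemia and 8 in that of wild type. Cd2, an adhesion receptor of lymphocytes, stood at 8.94, 1.20, 22.6, 0.608 and 47.5 FPKM in the leukemias and at 48.2 to 114 FPKM in wild type. Ly6d, which marks lymphoid progenitors bound for the B lineage, stood at 458, 398, 407, 39.5 and 89.2 FPKM against 366 to 741 FPKM. For Ly6d, 3 leukemias lay within the wild-type range and replicates 4 and 5 lay below it. Ptprc (CD45), the phosphatase of all white blood cells, had SDs of 0.155 and 0.154 in the groups. The leukemia median of the list was 0.36 without leukemia replicate 5, and leaving out wild-type replicate 1 or 3 gave wild-type medians of 0.27 and 0.24.

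Genes that build the antigen receptor or signal from it held single members of wide spread in lists that were about as spread in wild type. Dntt, the polymerase that adds bases at immunoglobulin joints, stood at 13.9, 128, 222, 706 and 401 FPKM in the leukemias and at 130, 239 and 156 FPKM in wild type (leukemia SD 2.14; adjusted p = 0.0639, limma moderated variances). Rag1, a subunit of the recombinase, stood at 51.5, 43.2, 197, 92 and 242 FPKM against 184 to 302 FPKM. Leukemia replicate 1 was lowest for Dntt and replicate 2 for Rag1, and leukemias lay on both sides of wild type for Dntt. The recombination list as a whole had medians of 0.30 and 0.31 in leukemia and wild type. Of the 30 genes of the pre-B receptor and its signalling, 20 had a larger SD in leukemia than in wild type, beside 55.8% of all genes. The medians of the list were 0.33 in leukemia, 0.30 in wild type and 0.48 in the Ebf1+/- pools. In its own most variable 10%, leukemia had 8 of the 30, wild type 12 and Ebf1+/- 14, and without leukemia replicate 1 or 5 the leukemia median (0.28 or 0.24) was below wild type. The kinase Blk, which starts signalling below the receptor, stood at 11.5, 91.9, 20.9, 83.2 and 145 FPKM against 78.6 to 143 FPKM in wild type. The signalling protein Malt1 stood at 7.90 to 10.2 FPKM in the leukemias.

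The 30 transcription factors of the B lineage had a median SD of 0.31 in the leukemias, 0.24 in wild type and 0.41 in the Ebf1+/- pools. In leukemia 8 were in the most variable 10% and 3 in the least variable 10%. The most variable 10% held 5 of them in wild type and 6 in the Ebf1+/- pools. Id3, which blocks E proteins, stood at 9.13, 24.4, 30.2, 9.65 and 70.7 FPKM over the leukemias and 25 to 56.8 FPKM in wild type. Ikzf1 (Ikaros), required for lymphoid development, was among the most constant, at 93.2 to 102 FPKM over the leukemias and 210 to 225 FPKM in wild type. Ikzf1 thus varied little within each group while the groups did not overlap. Pax5 had SDs of 0.50 and 0.47 and Ebf1 of 0.23 and 0.21, nearly equal in leukemia and wild type; these 2 genes were named for the genotype and after their values were seen.

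Outputs of cytokine signalling through STAT5 had a median SD of 0.48 in the leukemias, 0.34 in wild type and 0.39 in the Ebf1+/- pools. Of the list's 13 genes, 8 were in the most variable 10% of leukemia, 4 in that of wild type and 3 in that of the Ebf1+/- pools. Ccnd2, a cyclin of the G1 phase, stood at 69.7, 49.4, 12.8, 136 and 20.6 FPKM over the leukemias and 10.4 to 26.4 FPKM in wild type. Cish, an inhibitor induced by STAT5, stood at 7.18, 27.9, 5.67, 41.2 and 9.37 FPKM against 1.79 to 3.29 FPKM. For both genes leukemia replicate 4 was highest and replicate 3 lowest, and for Cish every leukemia lay above every pool. Mcl1, which protects cells from death, stood at 71.8 to 92.7 FPKM over the leukemias, an SD of 0.13. Without wild-type replicate 1 the wild-type median of the STAT5 list was 0.13. The pathway's own parts (receptor, JAK and STAT genes) were less spread, with medians of 0.21 and 0.18 over 18 genes, of which Sh2b3 was the single call.

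Genes of the p53 response ranged from widely spread to nearly constant. Cdkn1a (p21), which halts the cell cycle, stood at 3.31, 3.20, 16.9, 0.840 and 12.4 FPKM over the leukemias and 13 to 18.9 FPKM in wild type. Phlda3, an inhibitor of AKT, stood at 4.33, 3.28, 17.1, 0.580 and 7.23 FPKM against 1.41 to 2.49 FPKM. Leukemia replicates 3 and 5 were the highest for both genes and replicate 4 the lowest. Mdm2, which degrades p53, stood at 19.4 to 22.3 FPKM over the leukemias, an SD of 0.073. Cdkn2a, the Arf and p16 locus, stood at 9.62, 8.47, 21.5, 3.13 and 20.8 FPKM over the leukemias and under 1 FPKM in each pool. The list medians were 0.38 in leukemia, 0.22 in wild type and 0.39 in the Ebf1+/- pools. Without leukemia replicate 5 the leukemia value was 0.18, below wild type, and without wild-type replicate 1 the wild-type value was 0.13. Over members at 5 FPKM or more in both groups the leukemia median was also below that of wild type.

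Interferon-stimulated genes had medians of 0.32 in leukemia, 0.22 in wild type and 0.38 in the Ebf1+/- pools. Of the 38 genes, 15 were in the most variable 10% of leukemia, 8 in that of wild type and 9 in that of the Ebf1+/- pools. The SD was larger in leukemia than in wild type for 23 of 38, beside 55.8% of all genes. Xaf1, a pro-apoptotic protein induced by interferon, stood at 33, 47.6, 7.35, 35.6 and 24 FPKM over the leukemias and 4.93 to 11.9 FPKM in wild type. Their median deviation from the group mean was lowest in leukemia replicate 3 (-0.29) and highest in replicate 4 (0.29), and lay between -0.14 and 0.043 in the wild-type pools. Without wild-type replicate 1 the wild-type median SD of the interferon list was 0.14. The TNF superfamily had medians of 0.46 in leukemia, 0.30 in wild type and 0.48 in the Ebf1+/- pools. Of its 12 genes, 7 were in the most variable 10% of leukemia and 5 in that of wild type. Some of its members, such as the cytokine Tnfsf11 (wild-type mean 0.38 FPKM), entered the set only through the leukemias, and over members at 5 FPKM or more in both groups the order turned, at 0.34 and 0.42. Its wild-type median was 0.17 without wild-type replicate 3, and its leukemia median 0.32 without leukemia replicate 5.

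Some genes known from T cells were variable in leukemia, and the defining T-cell genes were low but highest in leukemia replicate 1. Of the 23 T-cell markers 8 were in the set, with medians of 0.96 in leukemia and 0.30 in wild type. In the most variable 10% were 5 in leukemia, 3 in wild type and 2 in the Ebf1+/- pools. Trat1, an adaptor of the T-cell receptor complex, stood at 54.8, 10.5, 0, 1.02 and 0.102 FPKM over the leukemias and at 0.908 FPKM or less in wild type. Lat, the scaffold of T-cell receptor signalling, was called (adjusted p = 0.0478, limma moderated variances), and stayed called in 8 of 19 alternative settings. Lat stood at 64.3 and 72.2 FPKM in leukemia replicates 1 and 4, 5.38 to 22.5 FPKM in the other 3 and 7.16 to 10.3 FPKM in wild type. In the Ebf1+/- pools Lat stood at 11.5, 7.23 and 55 FPKM, an SD of 1.455 beside 1.66 in the leukemias, so wide spread of Lat was not confined to leukemia. Cd3e, which defines T cells, stood at 0.377 to 2.05 FPKM in the leukemias and 0.881 to 3.17 FPKM in wild type with replicate 1 the highest leukemia. Cd3d, another chain of that receptor complex, stood at 3.98 FPKM in leukemia replicate 1 and 0.577 to 1.09 FPKM in the other 4, against 1.2 to 3.25 FPKM in wild type. Cd4, the coreceptor of helper T cells, stood at 4.98 FPKM in replicate 1 and 0.321 to 0.834 FPKM in the other 4, against 1.85 to 10.03 FPKM in wild type. Thy1, a surface protein of T cells, ranged from 2.37 to 42.8 FPKM over the leukemias and was highest in replicate 2. Replicate 1 was thus high for Trat1, Lat, Cd3d, Cd3e and Cd4. Lat was higher still in replicate 4, the leukemia of lowest Cd3e (0.377 FPKM). The part of T cells in the spread of Trat1 and Lat was not tested. The summed level of the 23 markers was 275.5 to 424 FPKM in the leukemias and 258 to 361 FPKM in wild type, to which Il7r, also a B-progenitor gene, gave 102 to 159 FPKM in the leukemias.

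The constant end of the ranking held large machines that every dividing cell needs. Core spliceosome genes had medians of 0.13 in leukemia and 0.14 in wild type, proteasome subunits 0.13 and 0.14, mitochondrial ribosomal proteins 0.13 and 0.12, and RNA polymerase II with its general factors 0.13 and 0.11. None of the 29, 37, 74 and 36 genes in these lists lay in the most variable 10% in leukemia, and 4, 7, 15 and 8 lay in the least variable 10%. Psmc3, an ATPase of the proteasome, stood at 120 to 133 FPKM over the leukemias and 122 to 143 FPKM in wild type, and Snrpa, a protein of the U1 particle, at 78.2 to 85.8 FPKM and 74.4 to 81.6 FPKM. The mitotic list was near the middle, at 0.18 in both groups, with leukemia replicate 1 lowest (median deviation -0.24) and replicate 2 highest (0.18). Its members ran from Spc24, nearly constant, to the cyclin Ccna2 at 74.8 to 128 FPKM (leukemia SD 0.31) and the securin Pttg1 at 7.03 to 16.4 FPKM (0.42), the single member in the most variable 10%.

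Chaperonins with heat shock proteins, tRNA charging and the making of ribosomes were constant in leukemia and spread in wild type. Chaperonins and heat shock proteins had medians of 0.11 in leukemia and 0.28 in wild type (3 of 19 more spread in leukemia), and aminoacyl-tRNA synthetases 0.13 and 0.25 (3 of 20). Nucleolar ribosome biogenesis had 0.14 and 0.43, with 5 of 35 genes more spread in leukemia, 20 of 35 in the most variable 10% of wild type and 1 of 35 in that of leukemia. Chaperones of the endoplasmic reticulum and the unfolded protein response went the other way, at 0.21 in leukemia and 0.16 in wild type with 16 of 21 more spread in leukemia, an order kept in 12 of 12 alternatives. Hspa8, the main cytosolic HSP70, stood at 1528 to 1633 FPKM over the leukemias and at 745, 984 and 1082 FPKM in wild type. Nop2 stood at 46.8 to 49 FPKM over the leukemias and at 21, 30.2 and 39.5 FPKM in wild type. In each of these the leukemias were nearly level and above all 3 pools, and wild-type replicate 1 was lowest and replicate 3 highest.

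This spread in wild type rested on a single pool. The median deviation of the ribosome biogenesis genes was -0.46, 0.085 and 0.32 in wild-type replicates 1, 2 and 3, and without replicate 1 the wild-type median SD of the list was 0.142, beside 0.139 in leukemia. Without it the wild-type medians were 0.080 for the synthetases and 0.051 for the chaperonins, below the leukemia values. The same pool was highest for AP-1 and immediate early genes, which are induced quickly by stimulation (median deviation 0.54, against -0.17 and -0.39), and their wild-type median SD of 0.48 was 0.11 without it, below the 0.36 of the leukemias. Jun, a subunit of AP-1, stood at 63.5, 8.84 and 9.74 FPKM in the pools and at 16.7 to 82.2 FPKM over the leukemias. Wild-type replicate 1 was also the pool of fewest mice, the highest in granulocyte markers and the lowest in erythroid and platelet markers (97.2, 319 and 584 FPKM in replicates 1, 2 and 3), and the part of these in the spread was not tested.

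**Figure D4:**
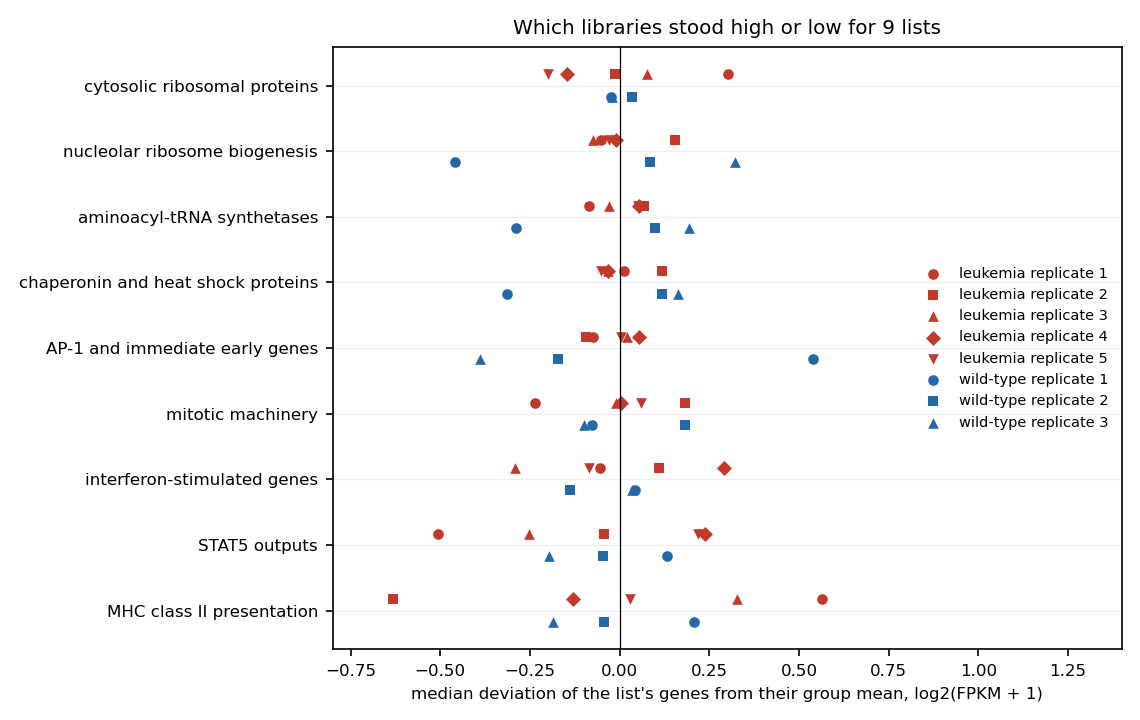
Median deviation of a list's genes from their group mean, log2(FPKM + 1), in each leukemia (upper marks of each row) and each wild-type pool (lower marks) for 9 lists. Wild-type replicate 1 stands lowest for ribosome biogenesis, the synthetases and the chaperonins and highest for AP-1 genes, while the leukemias spread along ribosomal proteins (-0.20 to 0.30), STAT5 outputs and MHC class II.

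With the values as deposited, ribosomal proteins were more spread than the other machines. Their 80 genes had a median SD of 0.23 in the leukemias, 0.082 in wild type and 0.40 in the Ebf1+/- pools, and 72 of 80 were more spread in leukemia than in wild type. The median deviation of the list was 0.30, -0.012, 0.077, -0.15 and -0.20 in leukemia replicates 1 to 5 and between -0.024 and 0.035 in the pools. Leukemia replicate 1, the library of fewest reads, was highest, and without it the median SD was 0.17. After quantile normalization the medians were 0.124 in leukemia and 0.12 in wild type, so nearly all of the difference was lost under that scaling. Other genes among the shortest 20% by length were ordered the same way but less, at 0.054, -0.0025, 0.044, -0.039 and -0.043, so transcript length moves with this result and its part was not tested. Single members differed from this order: Rpl29 stood at 314, 254, 545, 498 and 469 FPKM over the leukemias and 385 to 422 FPKM in wild type, while Rpl21 stood at 107 to 120 FPKM over the leukemias. Reads of ribosomal protein genes can be shared with near-identical pseudogenes, and how the counting treated them is not given in the sources used here.

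By position, chromosomes 15 and 17 stood apart in a single leukemia. For each chromosome the median deviation of its genes was taken per library. The range of this median over the leukemias was 0.27 on chromosome 15 (333 genes) and 0.23 on chromosome 17 (442 genes), and 0.038 to 0.15 on the other chromosomes, while over the wild-type pools it was 0.0049 to 0.11. In leukemia replicate 3 the median was 0.18 on chromosome 15 and 0.15 on chromosome 17, with 88.3% and 83.7% of their genes above the gene's leukemia mean, against 26% to 50.7% on the others. Without replicate 3 the ranges were 0.10 and 0.073, within those of the other chromosomes. The DNA copy number of these cells was not analysed here.

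**Figure D5:**
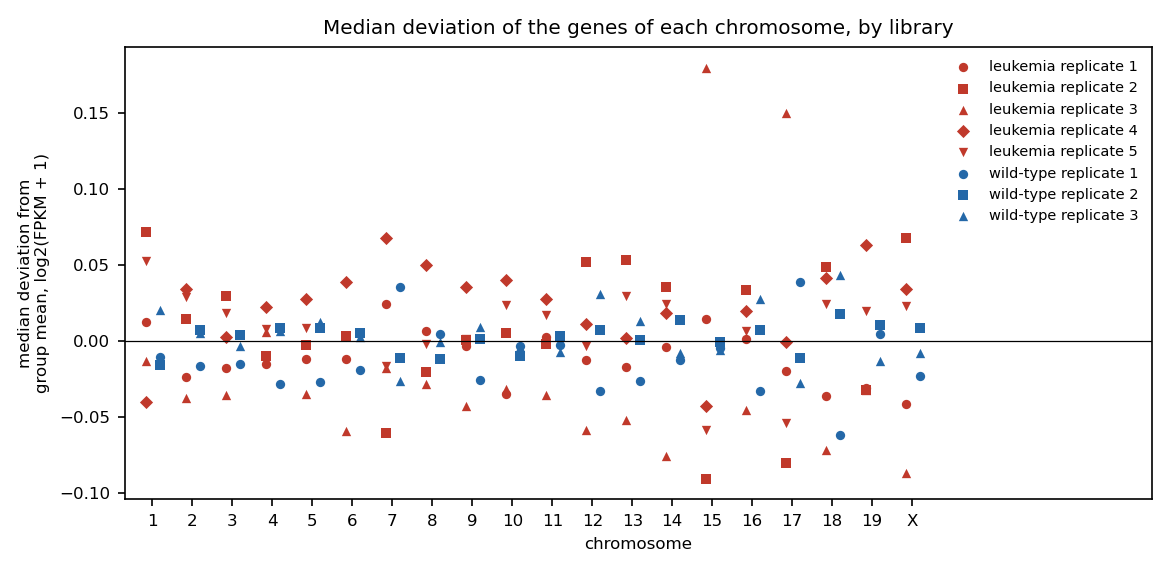
Median deviation from the group mean, log2(FPKM + 1), of the genes on each chromosome, for each leukemia and each wild-type pool. Leukemia replicate 3 stands at 0.18 on chromosome 15 and 0.15 on chromosome 17; every other mark lies between -0.090 and 0.072.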

How the data were processed

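RNA-seq of 5 leukemia, 3 wild-type and 3 Ebf1+/- libraries was used as the authors' deposited FPKM values. The submitters' processing notes list BWA 0.7.12 for leukemia and wild type and TopHat2 with Cufflinks for Ebf1+/-, on mm10 (GRCm38). Counting tool and annotation: not given in the sources used here. With a gene length and a library total found for them, the deposited FPKM values were whole reads (within 0.001) in 17380 of 17380 genes above 0, which gave the depths.

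SDs of log2(FPKM + 1) were computed per group. Each group's variances were moderated with limma 3.58.1 (R 4.3.3), with a trend on the mean, and each gene's variance in a group was divided by the moderated variance of the other group (F test, p as 2 times the smaller one-sided p, Benjamini-Hochberg over 8267 genes, threshold 0.05). The test was tested on simulated data. Library deviations were compared by an exact permutation test. Of the 8267 genes, 8235 matched RefSeq by symbol and 6739 had a promoter in its table.

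Named genes (156 in all) are the 12 highest and 12 lowest leukemia SDs, the 5 smallest p in each direction, and the 2 highest and 1 lowest of each list with at least 5 genes in the set, without segments of antigen receptor genes, predicted genes and small RNA genes. Cd3e, Cd79a, Pax5, Ebf1, Lat, Gm13157 and 2810025M15Rik were named in addition, after their values were seen. The members and the 56 gene lists (45 functions and 11 cell type markers) were chosen with earlier results of these data known. Alternatives tried were pseudocount, filters, scaling, priors, another test and leaving out each library.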

Additional observations from a re-analysis of the deposited data

Results flagged for a closer look

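Each value in a leukemia was compared with the other 4 for 223 named genes, lists and other quantities, and in 14 (6.28%) the highest or lowest leukemia lay so far from the nearest other that the gap exceeded 0.71 of the whole range (Dixon's limit for 5 values); chance flags about 1 in 20. The gap as a share of the range was 0.99 for Serpinb9d (leukemia replicate 1 high), 0.954 for BC064078 and 0.895 for Zfp507 (replicate 5 low), and 0.82 for Ccr2 (replicate 2 high). It was 0.78 for Dtx3 (replicate 2 low), 0.727 for Hist3h2a (replicate 2 low), 0.719 for Slc31a2 (replicate 4 high), 0.725 for Eif2d (replicate 4 low) and 0.727 for Atp5g3 (replicate 5 low). In 4 nearly constant genes the gap was large against a small range: 0.756 for Sars (replicate 2 low), 0.745 for Eif2b5, 0.741 for Pdia3 and 0.716 for Gnl3l (replicate 5 high in each). For the ribosome biogenesis list the median deviation of leukemia replicate 2 (0.15) stood above the other 4, a share of 0.718.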

How the results depend on the processing

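The count of genes with larger spread in leukemia (41) and in wild type (3) was 24 and 1 with a pseudocount of 0.1, 67 and 5 with a mean of at least 1 FPKM, 0 and 0 with at least 20 FPKM (221 and 213 before adjustment at p under 0.05, limma), 5 and 0 with at least 5 FPKM in both groups, 445 and 1785 with no filter, 15 and 0 after quantile normalization (443 in wild type before adjustment) and 18 and 1 with robust moderation. In wild type it was 5 with median-ratio scaling and 1 with a single prior variance for all genes. Leaving out each library in turn gave 12 to 98 and 0 to 27.

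With limma on absolute deviations the counts were 2 and 27 without the replicate block and 2 and 0 with the replicate number as a block (459 and 536 before adjustment). Of the 41 genes, 1 was still called in leukemia by either of these fits. The labels give no shared origin for equal replicate numbers, so the block rests on a number only; the paired differences of typical deviation averaged -0.0013 (exact sign-flip p = 1).

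The difference in median SD, 0.0078 with all libraries, was -0.0038 to 0.0716 when each library was left out, with 0.0343 without wild-type replicate 3. The difference in typical deviation was -0.039 to 0.0315. The difference in spread of Zfp36, larger in wild type, was -0.888 to 0.0871 when each library was left out, and turned to the other direction without wild-type replicate 1 (adjusted p = 1, limma). With 3 wild-type libraries, a 3-fold difference in SD was not recovered in simulated data, and pools and single animals cannot be told apart from normal and leukemic cells. Over the 12 alternatives for each of 46 gene lists, the difference in median SD kept its sign throughout in 16 lists, and 12 lists took the other sign without wild-type replicate 1.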

Other observations

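Metabolic and signalling genes outside the functions above also stood among the widest in leukemia, none of them past the test. Scd1, which desaturates fatty acids, stood at 3.48, 21.7, 1.73, 0.448 and 1.89 FPKM over the leukemias and at 13 to 20.3 FPKM in wild type, while Acly, which makes acetyl-CoA for the same pathway, stood at 88.9 to 103 FPKM and 96.5 to 103 FPKM. Mt1, a metallothionein, was wide in both groups, at 1.71 to 69.4 FPKM over the leukemias and 22.6, 52.4 and 124 FPKM in wild type. In the RAS pathway, Rasgrp3, an activator of RAS, stood at 16.2 FPKM in leukemia replicate 1 and at 1.42 to 3.56 FPKM in the other 4. Sos1, another activator of RAS, stood at 22.9 to 28 FPKM in leukemia replicates 2, 3 and 4 and at 5.16 and 7.26 FPKM in replicates 5 and 1, which lay in or near the wild-type range of 5.36 to 8.24 FPKM. The kinase Map2k1 (MEK1) stood at 28.6 to 32 FPKM over the leukemias.

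The clock genes and the Gimap GTPases, a family of lymphocyte GTPases, held pairs of unlike spread. Nr1d1, a repressor of the clock, stood at 4.72 to 10.8 FPKM over the leukemias, and Arntl, its activator, at 4.82 to 5.80 FPKM, against 51.5 to 66.4 FPKM in wild type. Gimap3 stood at 40.8 to 127 FPKM over the leukemias and Gimap5 at 18.6 to 24.4 FPKM, both above the wild-type pools.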
